A study of Mus musculus with 24 samples.

Results

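The genes of cholesterol and fatty acid synthesis were followed in 2 lymphoid progenitor populations of mouse bone marrow (BM) that lacked phospholipase C gamma 1 (PLCγ1), phospholipase C gamma 2 (PLCγ2), both or neither. The set was a list of 31 symbols chosen for their role in the pathway, and all 31 were found among the 24421 genes counted. In a cell, acetyl-CoA made in the cytosol from citrate or acetate feeds 2 routes, the mevalonate and sterol steps that end in cholesterol, and the carboxylation, elongation and desaturation steps that make fatty acids. The transcription factors SREBP1 and SREBP2 switch on genes of both routes. They are carried from the endoplasmic reticulum to the Golgi by SCAP when sterols are scarce and are held back by the INSIG proteins when sterols are plentiful. Dividing cells draw on both routes to build membrane, and mTOR signalling is known to raise SREBP activity.

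Common lymphoid progenitors (CLPs) were sorted as Lin−IL-7R+ cells. The B cell progenitors were sorted by B220 and IL-7R with IgM− as a gate. RNA was sequenced from mice wild type at both loci (Plcg1+/+Plcg2+/+), mice without PLCγ1 (Plcg1−/−Plcg2+/+), without PLCγ2 (Plcg1+/+Plcg2−/−) or without both (Plcg1−/−Plcg2−/−), with 3 mice per genotype, 12 libraries per population and 24 in all. Each mouse gave 1 library of each population. The mice were recipients: BM of donors treated with poly(I:C) was transplanted into lethally irradiated wild-type CD45.1+ mice, and cells of donor origin were sorted weeks later. All donors, the Plcg1+/+Plcg2+/+ controls included, carried MxCre, whose promoter answers to type I interferon, and a YFP reporter at the Rosa locus. Plcg1−/− stands for a floxed Plcg1 allele deleted by that Cre in the adult, and Plcg2−/− for a germ-line deletion, so the loss was not limited to B lineage cells. How many donors each genotype had is not stated in the sources used here, so n counts recipients, and p-values measure the spread between them. A value in bulk RNA cannot tell fewer cells of a type from less RNA per cell.

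Each CLP library held 4232345 to 33219995 reads on genes and each B cell progenitor library 1479582 to 25057223. Levels are in CPM, the reads on a gene scaled to a common library size, and 3 reads equalled 0.0903 to 0.709 CPM in CLPs and 0.12 to 2.03 CPM in B cell progenitors, counting error alone. The share of reads on no gene was 17.9% to 45.2% in CLPs but 59.9% to 87.3% in B cell progenitors, a difference that cannot be told apart from that between the populations. Among B cell progenitors Plcg2 had 234 ± 17.1 CPM in Plcg1+/+Plcg2+/+ mice, 90.4 ± 9.33 CPM in Plcg1+/+Plcg2−/− mice and 91.8 ± 19.4 CPM in Plcg1−/−Plcg2−/− mice (SD, 3 libraries each). Plcg1 overlapped between its genotypes there, from 80.7 to 113 CPM in Plcg1+/+Plcg2+/+ and from 56.5 to 183 CPM in Plcg1−/−Plcg2−/− mice. These counts are over the whole gene and do not read the floxed exons, so they do not check that deletion. Xist ranged from 1309 to 2248 CPM in the 12 Plcg1−/− libraries and from 23.5 to 741 CPM in the 12 others, so the Plcg1 genotype and sex-linked transcripts cannot be told apart. B lineage markers overlapped between the populations, with summed levels of 1006 to 7099 CPM in CLPs and 2291 to 8615 CPM in B cell progenitors. The replicate 1 libraries of the 3 knockout genotypes stood apart in both populations, with 7760 to 9839 summed CPM of the 11 myeloid markers against 1602 to 6830 in the 18 other libraries. Counts of genes, medians and the values of named genes are also given below without these 6 libraries where they moved most. No marker list was at 0, but the haemoglobin genes Hba-a1, Hbb-b1 and Hbb-bs were listed at 0 in all libraries.

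Promoter sequence was read for Mvd, Dhcr7 and Msmo1, which reached 0.05 before adjustment in double-deficient B cell progenitors. With Fdps, that was a share of the 31 genes like that of all genes in either direction. The share of all genes that were higher is given beside it below. Sequence was also read for Hmgcs1, the only one of the 31 higher in the B cell progenitors of every mouse than in its CLPs. RefSeq promoters of GRCm38.p6 were at hand for 25 of the 31 genes. Fdps, the other gene that reached 0.05, Fdft1, Sqle, Scd1, Scd2 and Stard4 were not matched. Below, the 250 bases before the annotated start are written 5′ to 3′ along the gene. Capitals mark the sterol regulatory element letters TCACNCCAC, the CCAAT box CCAAT and the GC box GGGCGG, each on either strand. The regions are chr13:119690101-119690350 (plus strand) for Hmgcs1, chr8:122443423-122443672 (minus strand) for Mvd, chr7:143822917-143823166 (plus strand) for Dhcr7 and chr8:64733579-64733828 (minus strand) for Msmo1.
Hmgcs1: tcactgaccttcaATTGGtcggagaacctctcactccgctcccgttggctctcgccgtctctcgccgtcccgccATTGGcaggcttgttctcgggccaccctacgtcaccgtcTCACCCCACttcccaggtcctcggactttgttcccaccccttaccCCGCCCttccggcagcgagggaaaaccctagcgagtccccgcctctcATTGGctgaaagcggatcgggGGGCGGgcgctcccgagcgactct
Mvd: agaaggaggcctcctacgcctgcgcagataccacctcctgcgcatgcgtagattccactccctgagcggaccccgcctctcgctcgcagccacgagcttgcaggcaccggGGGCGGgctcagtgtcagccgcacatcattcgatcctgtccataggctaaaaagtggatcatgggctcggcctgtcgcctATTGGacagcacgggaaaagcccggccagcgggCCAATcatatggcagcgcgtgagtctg
Dhcr7: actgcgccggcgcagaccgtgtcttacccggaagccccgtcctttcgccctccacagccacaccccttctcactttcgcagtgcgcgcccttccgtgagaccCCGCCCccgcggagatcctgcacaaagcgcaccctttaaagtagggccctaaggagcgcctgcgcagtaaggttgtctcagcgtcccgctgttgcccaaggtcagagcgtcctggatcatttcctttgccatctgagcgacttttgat
Msmo1: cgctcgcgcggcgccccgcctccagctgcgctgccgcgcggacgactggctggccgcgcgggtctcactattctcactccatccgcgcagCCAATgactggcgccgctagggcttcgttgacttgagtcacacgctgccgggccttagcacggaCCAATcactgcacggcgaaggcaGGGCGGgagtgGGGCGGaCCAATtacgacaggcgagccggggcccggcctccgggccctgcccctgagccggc
Hmgcs1 held 1 sterol element match, 3 CCAAT boxes and 2 GC boxes in these bases. Mvd held 2 CCAAT boxes and 1 GC box, Msmo1 held 3 CCAAT boxes and 2 GC boxes, and Dhcr7 held 1 GC box alone. Over windows of 300 bases, which add 50 bases after the start, the sterol element letters were found in 1 of the 25 promoters (4%) and in 1.22% of all 27025 promoters of the same length. The CCAAT letters were in 20 of 25 (80%) against 37.9% of all promoters, and the GC box letters in 19 of 25 (76%) against 35.9%. All promoters were not limited to genes expressed in these cells, so these shares do not set the pathway apart from other expressed genes. None of the letters searched contains another. A match is a description of letters and was not tested for binding.

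All 31 genes were measured in every library, with at least 18 reads in a CLP library and at least 9 in a B cell progenitor library, and all passed edgeR's filter on low counts in both populations. Together they made up 2130 ± 163 CPM in Plcg1+/+Plcg2+/+ CLPs and 1954 ± 84.7 CPM in B cell progenitors of the same mice (SD, n = 3). Levels between genes are compared here as CPM per kb of exon in Plcg1+/+Plcg2+/+ mice. Acly, the ATP citrate lyase that splits citrate into acetyl-CoA, was the highest, at 77.1 ± 7.24 CPM per kb in CLPs and 76.5 ± 5.80 in B cell progenitors. It was followed by the regulators Srebf2, at 48.3 ± 6.45 and 37.7 ± 3.40 CPM per kb, and Scap, at 46.9 ± 3.54 and 38.0 ± 3.68, which did not differ beyond their spread. The stearoyl-CoA desaturase Scd2 (35.3 ± 13.1 and 32.1 ± 6.80 CPM per kb) and Srebf1 (29.0 ± 4.95 and 24 ± 1.70) came next and overlapped. At the low end stood Idi1, the isopentenyl diphosphate isomerase, with 2.05 ± 0.755 CPM per kb in CLPs and 2.59 ± 0.804 in B cell progenitors. Hsd17b7, Acaca and Lss were near it, between 2.44 and 3.88 CPM per kb of Plcg1+/+Plcg2+/+ mean. The regulator Insig1 had 22.6 ± 4.17 and 22.3 ± 8.21 CPM per kb, and Insig2 6.08 ± 0.781 and 6.12 ± 0.467, so regulators stood both near the top and in the lower part of the set.

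The spread over the 12 libraries of a population differed between the genes. Ebp, the sterol isomerase, varied least in CLPs, with a coefficient of variation of 8.86%, and Pmvk, the phosphomevalonate kinase, least in B cell progenitors, with 10.8%. Acss2, which makes acetyl-CoA from acetate, varied most in CLPs, from 13.5 to 81.1 CPM with a coefficient of variation of 70.3%, and Scd1 ranged from 21.8 to 182 CPM with 60.1%. The median coefficient of variation of the 31 genes was 17.5% in CLPs and 21.8% in B cell progenitors, against 24.5% and 24.9% over all genes tested. All genes tested were not matched to the 31 for level, on which counting error depends. Between pairs of the 31 genes the median Pearson correlation of log2 CPM over 12 libraries was 0.0826 in CLPs and 0.116 in B cell progenitors, against −0.002 and 0.006 for all genes. For the 17 mevalonate and sterol enzymes alone it was 0.151 in both. These correlations share library depth and cell make-up and are given as a description. Per library, the median deviation of the 31 genes from their means was largest in replicate 2 of the Plcg1−/−Plcg2−/− B cell progenitors, at 0.27 on the log2 scale, and lay between −0.14 and 0.13 in the 23 others.

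**Figure D1:**
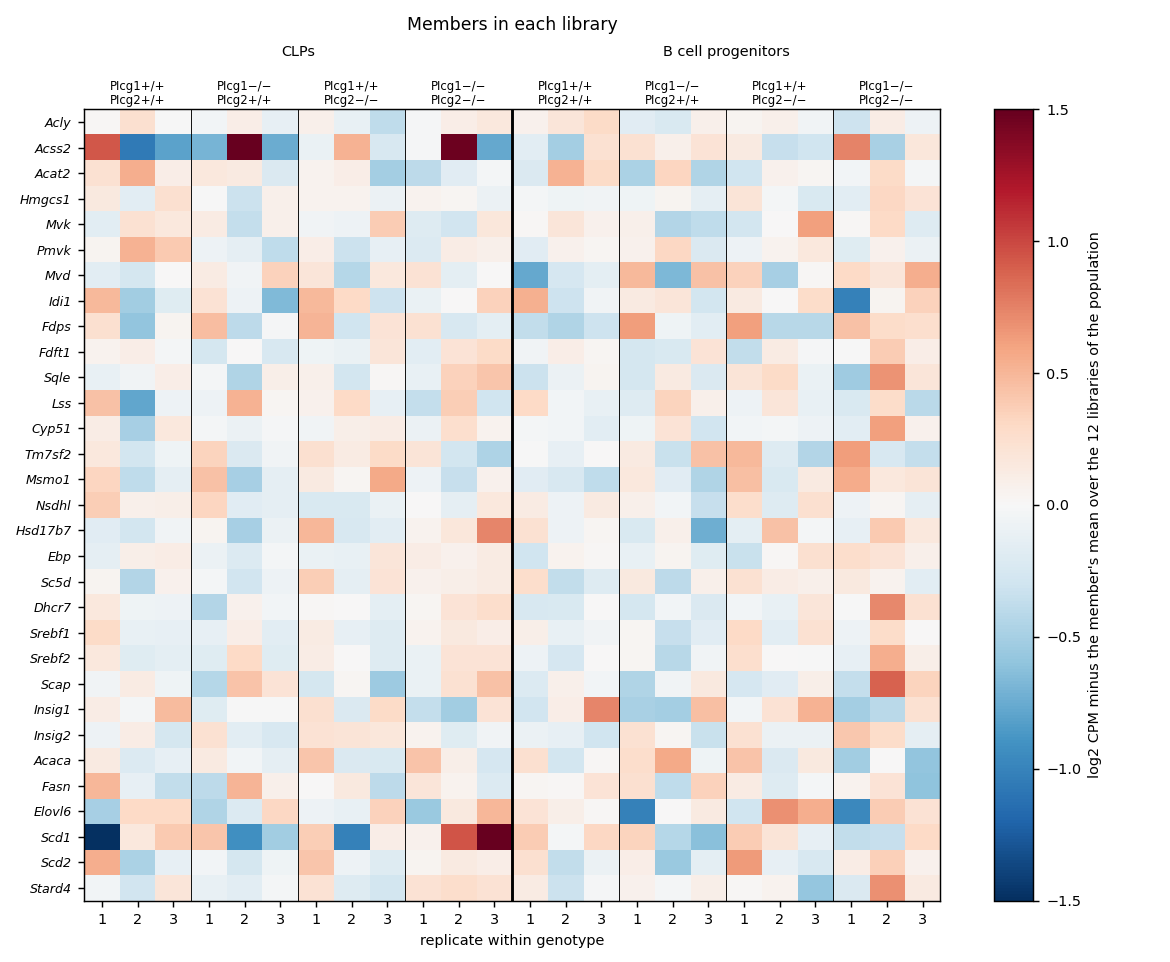
Heat map of the 31 genes (rows) in the 24 libraries (columns, by population, genotype and replicate). Colour is log2 CPM minus the gene's mean over the 12 libraries of the population, with values beyond ±1.5 drawn at the end of the scale. Acss2 and Scd1 in CLPs have the deepest colours, and most other rows stay pale.

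Among B cell progenitors, no gene of the pathway passed the test between Plcg1−/−Plcg2−/− and Plcg1+/+Plcg2+/+ mice, which asks what the loss of both PLCγs does. A gene was called where its log2 fold change was 0.5 or more either way and its p, adjusted by Benjamini-Hochberg, was 0.05 or less. edgeR called 0 of 31, where 0.893% of the 15001 genes tested were called. DESeq2 also called 0. Without adjustment, at a p of at most 0.05, edgeR had 4 of 31 (all higher in Plcg1−/−Plcg2−/−) and DESeq2 the same 4 and Acly, which was lower, beside 12.3% of all genes in either direction and 5.71% higher. As single libraries were left out, the 4 became 1 (without Plcg1+/+Plcg2+/+ replicate 1) to 7 (without Plcg1−/−Plcg2−/− replicate 1). The median log2 fold change of the 31 was 0.10, against −0.02 for all genes, and it was 0.02 without Plcg1−/−Plcg2−/− replicate 2 and 0.20 without Plcg1−/−Plcg2−/− replicate 1. The 4 genes were enzymes of the mevalonate and sterol routes, Fdps, Mvd, Msmo1 and Dhcr7. The groups did not overlap for 4 genes higher in Plcg1−/−Plcg2−/− (Ebp, Fdps, Msmo1 and Mvd), beside 8.93% of all genes, and for 0 lower, beside 10.8%.

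Fdps, farnesyl diphosphate synthase, makes the precursor of sterols and of the prenyl groups on small GTPases. Its levels were 26.1, 24.8 and 27.1 CPM in Plcg1+/+Plcg2+/+, 52.0, 32.2 and 30.2 CPM in Plcg1−/−Plcg2+/+, 51.5, 25.2 and 25.2 CPM in Plcg1+/+Plcg2−/−, and 45.6, 41.0 and 40.1 CPM in Plcg1−/−Plcg2−/− B cell progenitors. The 3 Plcg1−/−Plcg2−/− libraries lay above the 3 Plcg1+/+Plcg2+/+ ones, and the Plcg1−/−Plcg2+/+ libraries did so as well. The log2 fold change between Plcg1−/−Plcg2−/− and Plcg1+/+Plcg2+/+ was 0.70 (SE 0.27, adjusted p = 0.32). Mvd, mevalonate diphosphate decarboxylase, had 6.29, 9.04 and 9.75 CPM in Plcg1+/+Plcg2+/+, 15.1, 6.76 and 14.6 CPM in Plcg1−/−Plcg2+/+, 13.7, 7.64 and 10.9 CPM in Plcg1+/+Plcg2−/−, and 13.2, 12.2 and 15.7 CPM in Plcg1−/−Plcg2−/−. Here the single-deficient genotypes overlapped both other groups, and only Plcg1−/−Plcg2−/− was clear of Plcg1+/+Plcg2+/+. Its log2 fold change was 0.71 (SE 0.32, adjusted p = 0.40). In the single-deficient genotypes both genes were highest in the replicate 1 libraries, which had the most myeloid markers.

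Msmo1, the sterol C4 methyl oxidase, had 19.9, 18.8 and 17.2 CPM in Plcg1+/+Plcg2+/+ B cell progenitors, 24.9, 19.9 and 16.3 CPM in Plcg1−/−Plcg2+/+, 30.6, 19 and 24.5 CPM in Plcg1+/+Plcg2−/−, and 32.7, 25.0 and 25.5 CPM in Plcg1−/−Plcg2−/−. The log2 fold change between Plcg1−/−Plcg2−/− and Plcg1+/+Plcg2+/+ was 0.56 (SE 0.21, adjusted p = 0.30), with no overlap between those groups. Dhcr7, the 7-dehydrocholesterol reductase of the last step to cholesterol, had 21.4, 21.5 and 25.2 CPM in Plcg1+/+Plcg2+/+, 21, 24.6 and 21.7 CPM in Plcg1−/−Plcg2+/+, 24.5, 23.4 and 28.6 CPM in Plcg1+/+Plcg2−/−, and 25.1, 41.3 and 29.5 CPM in Plcg1−/−Plcg2−/−. One Plcg1−/−Plcg2−/− library, replicate 2, stood far above the other two, and the lowest Plcg1−/−Plcg2−/− library fell within the Plcg1+/+Plcg2+/+ range. Its log2 fold change was 0.51 (SE 0.19, adjusted p = 0.30), and 0.27 without that library.

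Marker lists were read in the same comparison, for which the shares of all genes called and at an unadjusted p of at most 0.05 are given above. All 11 myeloid markers were higher in Plcg1−/−Plcg2−/− than in Plcg1+/+Plcg2+/+ B cell progenitors by fitted value, 4 at an unadjusted p of at most 0.05 and 0 called, with summed levels of 2942 to 7760 CPM in Plcg1−/−Plcg2−/− and 1614 to 4891 CPM in Plcg1+/+Plcg2+/+. Of the 10 proliferation markers 9 were lower, 7 at that p and 0 called, with 3677 to 6047 summed CPM in Plcg1−/−Plcg2−/− and 7217 to 7283 in Plcg1+/+Plcg2+/+. All 6 T and NK cell markers and all 5 plasmacytoid dendritic cell markers had fitted values above 0, with 0 and 1 at that p. Of the 7 lymphoid progenitor markers 5 were above 0, 1 at that p and 0 called, with 1374 to 5105 summed CPM in Plcg1−/−Plcg2−/− and 1687 to 2418 in Plcg1+/+Plcg2+/+, and of the 10 B lineage markers 7 were above 0, with 2490 to 8615 and 3714 to 5269 summed CPM. The library with 5105 and 8615, the highest of both lists among the B cell progenitors, was Plcg1−/−Plcg2−/− replicate 2, in which Dhcr7, Scap and Srebf2 were also highest. Of the sums given, only those of proliferation did not overlap between Plcg1−/−Plcg2−/− and Plcg1+/+Plcg2+/+. In Plcg1−/−Plcg2+/+ B cell progenitors the myeloid sums were 2529 to 8865 CPM and the proliferation sums 4070 to 6049, the latter also wholly below Plcg1+/+Plcg2+/+. In Plcg1+/+Plcg2−/− they were 1602 to 8655 and 4345 to 7680 CPM, which overlapped Plcg1+/+Plcg2+/+. Pearson correlations of log2 levels were taken over the 12 B cell progenitor libraries, which share depth and cell make-up. With the lymphoid progenitor list the correlation was 0.87 for Scap, 0.80 for Cyp51 and 0.68 for Dhcr7, but −0.58 for Tm7sf2. With the proliferation list it was −0.89 for Fdps, −0.77 for Msmo1, −0.77 for Mvd and −0.04 for Dhcr7. Other genes of the 31 went the other way with that list, among them Elovl6 (0.77), Acly (0.70) and Lss (0.61). For the myeloid list Fdps, Msmo1, Mvd and Dhcr7 had 0.73, 0.56, 0.86 and 0.02, and Lss had −0.74. The part of these cells and states in the values of the pathway genes was not tested. Without the 6 myeloid-high libraries, an alternative chosen after seeing the data, 0 of 31 were called, beside 1.39% of the 17545 genes then tested, and 5 were at or under 0.05 before adjustment, beside 10.9% in either direction. These 5, all higher, were Fdps, Sqle, Dhcr7, Scap and Srebf2, the last with a log2 fold change of 0.42. Mvd and Msmo1 were not among them. The median of the 31 was then 0.17, against −0.06 for all genes. The log2 fold change was then 0.62 for Fdps (adjusted p = 0.11), 0.71 for Mvd (0.51), 0.63 for Dhcr7 (0.21), 0.42 for Msmo1 (0.48) and 0.68 for Scap (0.16).

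**Figure D2:**
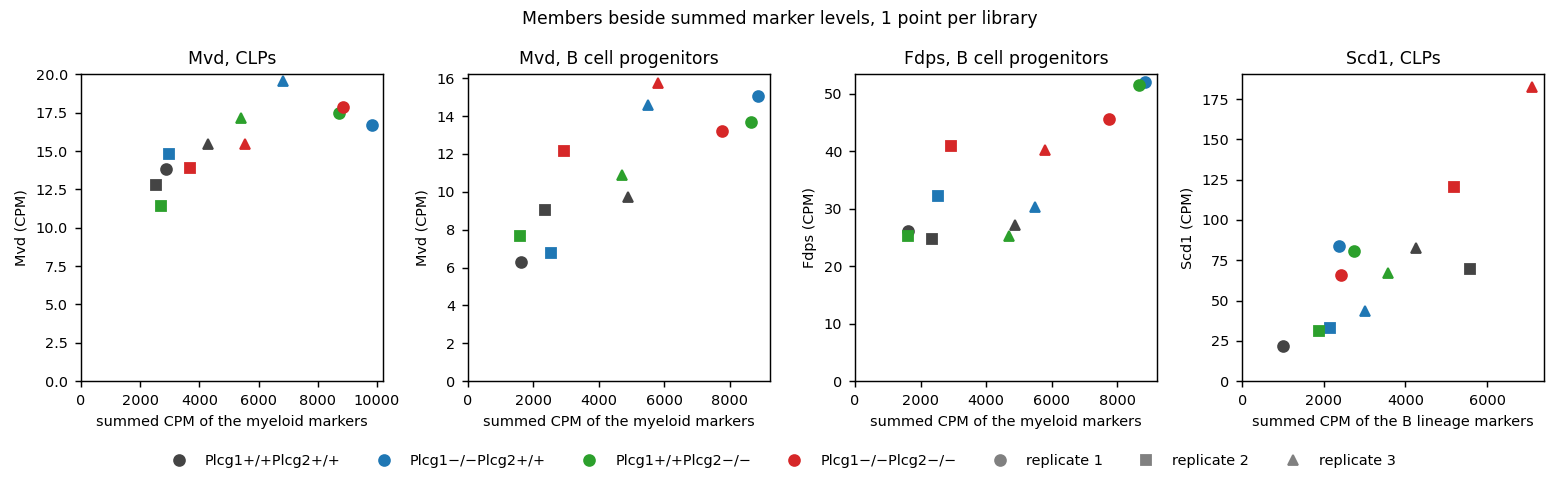
Levels of Mvd, Fdps and Scd1 (vertical axes, CPM) against the summed CPM of the myeloid or B lineage markers in the same library (horizontal axes), 1 point per library, with colour for genotype and shape for replicate. The replicate 1 libraries of the 3 knockout genotypes lie at the right of the myeloid panels, from 7760 summed CPM on, and Scd1 in CLPs is highest, at 182 CPM, in the library with most B lineage markers, at 7099.

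The other 27 genes in B cell progenitors had log2 fold changes between Plcg1−/−Plcg2−/− and Plcg1+/+Plcg2+/+ from −0.43 (Insig1) to 0.44 (Scap). Of the other sterol route enzymes, the squalene epoxidase Sqle had 0.32, the lanosterol demethylase Cyp51 0.30, Ebp 0.25, Hmgcs1 0.19, the squalene synthase Fdft1 0.15, Hsd17b7 0.10, the desaturase Sc5d 0.09 and the sterol reductase Tm7sf2 0.08. Pmvk and the mevalonate kinase Mvk were both near 0, at −0.04 and −0.03, and the sterol dehydrogenase Nsdhl (−0.12), the lanosterol synthase Lss (−0.14) and Idi1 (−0.16) were slightly below it. On the fatty acid side, acetyl-CoA carboxylase Acaca had −0.34, Scd1 −0.33, fatty acid synthase Fasn −0.16, the elongase Elovl6 −0.11 and Scd2 0.24. The acetyl-CoA genes Acly, Acat2 and Acss2 had −0.26, −0.14 and 0.31, and the sterol carrier Stard4 0.33. The lowest adjusted p among these 27 was 0.47, for Acly. In 27 of the 31 genes (87.1%) the 95% interval of the change lay inside a 2-fold change either way, against 52.4% of all genes. This share and the one for CLPs below were not matched for level, on which the width of an interval depends. As summed levels, the 6 mevalonate genes had 141 to 143 CPM in Plcg1+/+Plcg2+/+ and 154 to 182 CPM in Plcg1−/−Plcg2−/−, and the 11 sterol genes 262 to 271 and 285 to 367 CPM. The sum of 367 CPM was that of replicate 2. In Plcg1−/−Plcg2+/+ the mevalonate and sterol sums were 140 to 175 and 250 to 281 CPM, and in Plcg1+/+Plcg2−/− 141 to 180 and 288 to 292 CPM. The Plcg1+/+Plcg2−/− sterol sums thus also lay above Plcg1+/+Plcg2+/+, within the range of Plcg1−/−Plcg2−/−.

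**Figure D3:**
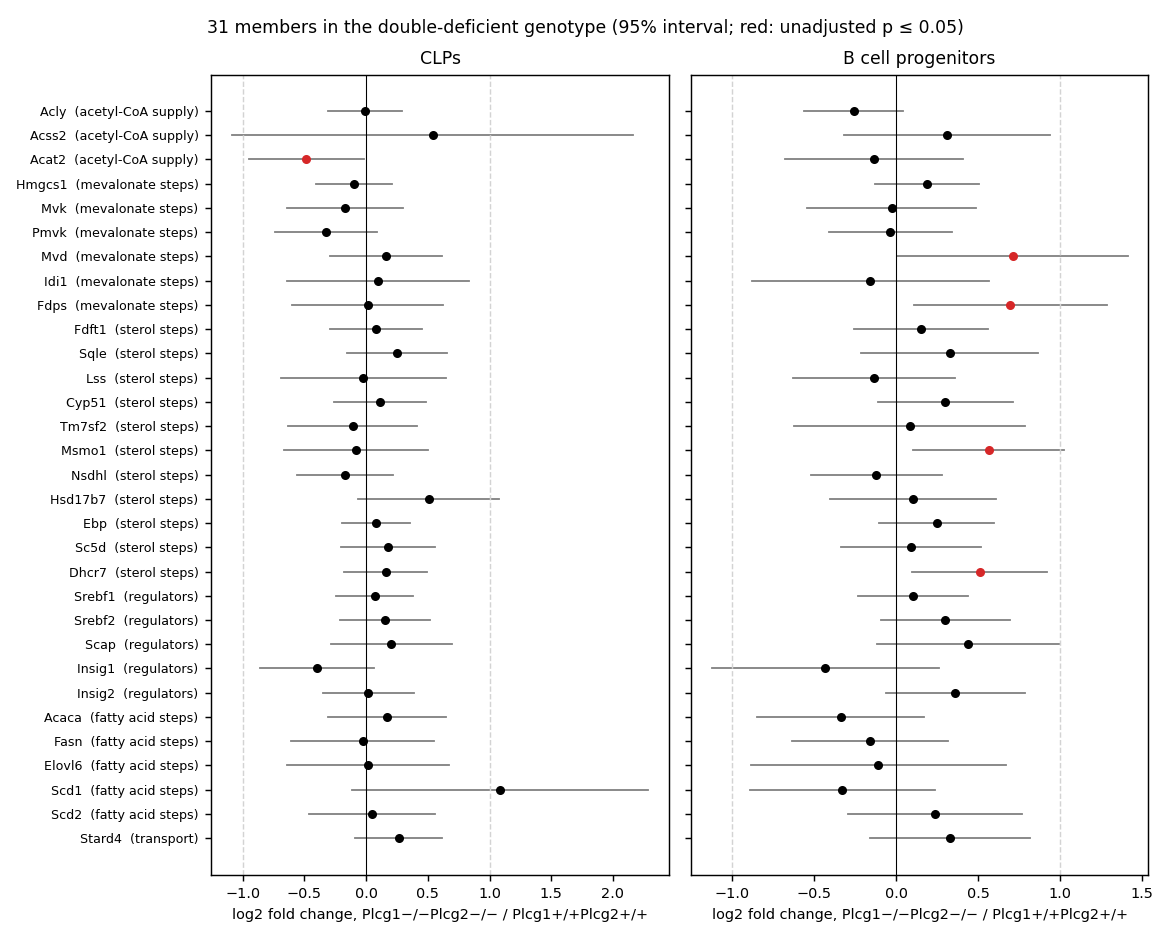
Log2 fold change of each of the 31 genes between Plcg1−/−Plcg2−/− and Plcg1+/+Plcg2+/+ (horizontal axis; lines are 95% intervals, dashed lines a 2-fold change) in CLPs (left) and B cell progenitors (right). Red points have an unadjusted p of at most 0.05. They are Acat2 at −0.48 in CLPs, and Fdps, Mvd, Msmo1 and Dhcr7 between 0.51 and 0.71 in B cell progenitors.

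In CLPs, edgeR called 0 of 31 genes between Plcg1−/−Plcg2−/− and Plcg1+/+Plcg2+/+ mice, and DESeq2 0, where edgeR called 0.0921% of 15209 genes. Unadjusted, edgeR had 1 of 31 at a p of at most 0.05 and DESeq2 2, beside 7.52% of all genes. The median log2 fold change was 0.07, against −0.03 for all genes, and 28 of 31 intervals (90.3%) lay inside a 2-fold change, against 54.3% of all genes. For 3 genes all Plcg1−/−Plcg2−/− CLP libraries lay above all Plcg1+/+Plcg2+/+ ones (Hsd17b7, Sc5d and Stard4), beside 5.85% of all genes, and for 1 below (Acat2), beside 7.75%. The gene with the lowest p was Acat2, the cytosolic acetyl-CoA acetyltransferase that starts the route to mevalonate. It had 20.1, 25.1 and 18.3 CPM in Plcg1+/+Plcg2+/+ CLPs, 19.2, 18.8 and 14.7 CPM in Plcg1−/−Plcg2+/+, 17.8, 18.4 and 12.1 CPM in Plcg1+/+Plcg2−/−, and 13, 15.3 and 16.9 CPM in Plcg1−/−Plcg2−/−. The knockout groups overlapped one another. The log2 fold change between Plcg1−/−Plcg2−/− and Plcg1+/+Plcg2+/+ was −0.48 (SE 0.21, adjusted p = 0.64).

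Scd1, a desaturase that makes oleate, had the largest difference of the 31 in CLPs and the widest interval but one. Its levels were 21.8, 69.6 and 82.4 CPM in Plcg1+/+Plcg2+/+, 83.7, 33.0 and 43.5 CPM in Plcg1−/−Plcg2+/+, 80.6, 30.9 and 67.2 CPM in Plcg1+/+Plcg2−/−, and 65.7, 120.4 and 182 CPM in Plcg1−/−Plcg2−/− CLPs. The groups overlapped, and the log2 fold change of 1.09 (SE 0.55, adjusted p = 0.68) ranged from 0.68 to 1.46 as single libraries were left out and was 1.39 (adjusted p = 0.67) without the 6 myeloid-high libraries. Its 95% interval ran from −0.11 to 2.29. The Plcg1−/−Plcg2−/− CLP libraries with 120.4 and 182 CPM also had 5189 and 7099 summed CPM of B lineage markers, while the Plcg1+/+Plcg2+/+ library with 21.8 CPM had 1006, and the part of these markers was not tested. Hsd17b7, a 17-beta hydroxysteroid dehydrogenase of the sterol route, had 12.2, 11.4 and 13.3 CPM in Plcg1+/+Plcg2+/+, 14.2, 9.72 and 13 CPM in Plcg1−/−Plcg2+/+, 19.4, 11.7 and 12.3 CPM in Plcg1+/+Plcg2−/−, and 14.2, 15.4 and 22.9 CPM in Plcg1−/−Plcg2−/−. These Plcg1−/−Plcg2−/− libraries lay above the Plcg1+/+Plcg2+/+ ones with a log2 fold change of 0.51 (SE 0.26, adjusted p = 0.70), and of 0.27 without Plcg1−/−Plcg2−/− replicate 3. Scd1 and Hsd17b7 were the 2 of 31 at an unadjusted p of at most 0.05 without the 6 myeloid-high libraries, beside 6.57% of all genes, and 0 were called, beside 0.0727%. The remaining sterol, fatty acid and acetyl-CoA genes had values from −0.33 (Pmvk) to 0.54 (Acss2, whose interval spanned −1.09 to 2.16).

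**Figure D4:**
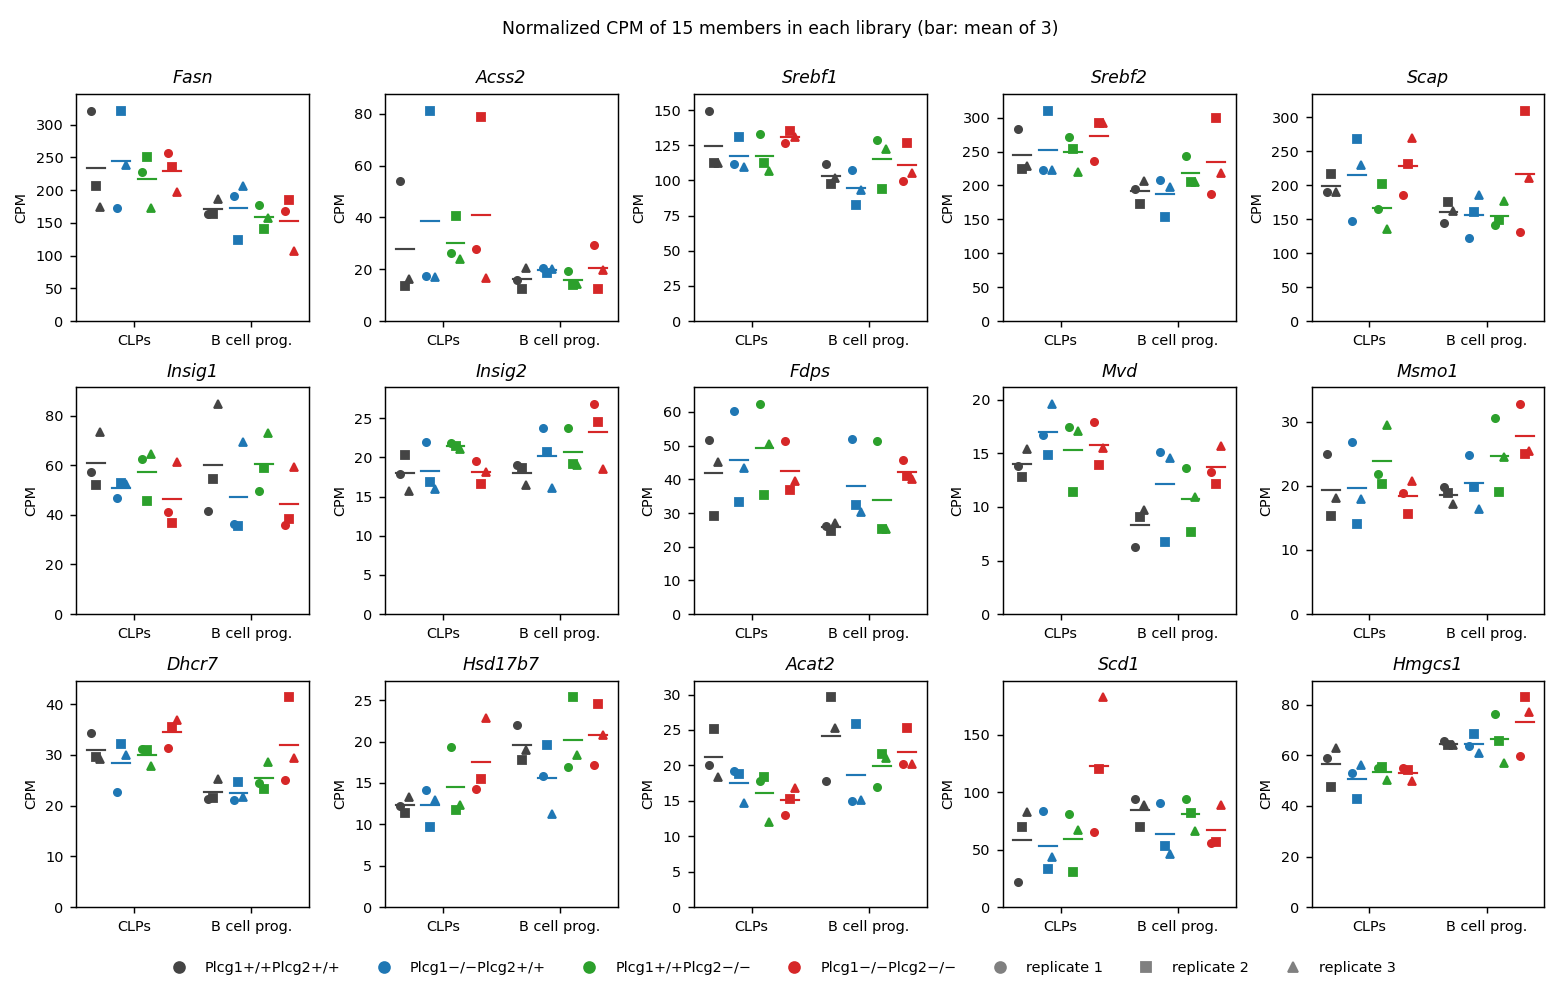
CPM of 15 of the genes in each of the 24 libraries, with CLPs at the left and B cell progenitors at the right of each panel, colour for genotype, shape for replicate and a bar for the mean of 3. Fdps in B cell progenitors lies between 24.8 and 27.1 CPM in Plcg1+/+Plcg2+/+ and between 40.1 and 45.6 CPM in Plcg1−/−Plcg2−/−, while Acss2 in CLPs shows single high libraries, up to 81.1 CPM, in 3 genotypes.

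The 5 regulators of the pathway did not pass the test in either population. Srebf2, which encodes SREBP2, had 283, 224 and 229 CPM in Plcg1+/+Plcg2+/+ CLPs and 236, 292 and 292 CPM in Plcg1−/−Plcg2−/− CLPs, with 223, 309.6 and 222 CPM in Plcg1−/−Plcg2+/+ and 272, 254 and 220.4 CPM in Plcg1+/+Plcg2−/−. Its B cell progenitor levels were 195, 173 and 207 CPM in Plcg1+/+Plcg2+/+, 209, 154 and 197 CPM in Plcg1−/−Plcg2+/+, 244, 206 and 205 CPM in Plcg1+/+Plcg2−/−, and 188, 299.8 and 218 CPM in Plcg1−/−Plcg2−/−. The 4 genotypes overlapped in both populations, and the log2 fold change between Plcg1−/−Plcg2−/− and Plcg1+/+Plcg2+/+ was 0.16 in CLPs and 0.30 in B cell progenitors (adjusted p = 0.85 and 0.52), and the latter was 0.08 without Plcg1−/−Plcg2−/− replicate 2 and 0.44 without Plcg1−/−Plcg2−/− replicate 1. Srebf1, which encodes SREBP1, had 149, 113 and 112 CPM in Plcg1+/+Plcg2+/+, 112, 131 and 109 CPM in Plcg1−/−Plcg2+/+, 133, 112 and 107 CPM in Plcg1+/+Plcg2−/−, and 127, 135 and 131 CPM in Plcg1−/−Plcg2−/− CLPs. For B cell progenitors these were 111, 97.1 and 101 CPM, 107, 82.6 and 93.2 CPM, 129, 93.9 and 123 CPM, and 99.5, 127 and 106 CPM in the same order. Again the groups overlapped, with log2 fold changes of 0.07 and 0.10 between Plcg1−/−Plcg2−/− and Plcg1+/+Plcg2+/+ (adjusted p = 0.93 and 0.80).

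Scap, the sterol sensor that escorts SREBP, had 190.2, 216 and 189 CPM in Plcg1+/+Plcg2+/+, 147, 267 and 229 CPM in Plcg1−/−Plcg2+/+, 164, 201 and 136 CPM in Plcg1+/+Plcg2−/−, and 185, 232 and 269 CPM in Plcg1−/−Plcg2−/− CLPs. B cell progenitors had 145, 175 and 162 CPM in Plcg1+/+Plcg2+/+, 122, 160.3 and 185 CPM in Plcg1−/−Plcg2+/+, 141, 148 and 177 CPM in Plcg1+/+Plcg2−/−, and 131, 309 and 211 CPM in Plcg1−/−Plcg2−/−. The Plcg1−/−Plcg2−/− B cell progenitors held both the highest and nearly the lowest Scap level of that population. The log2 fold change between Plcg1−/−Plcg2−/− and Plcg1+/+Plcg2+/+ was 0.21 in CLPs and 0.44 in B cell progenitors (adjusted p = 0.85 and 0.51), and the latter was 0.09 without Plcg1−/−Plcg2−/− replicate 2, as the former was 0.08 without Plcg1−/−Plcg2−/− replicate 3. Insig1, which retains SCAP, had 57.3, 52.0 and 73.6 CPM in Plcg1+/+Plcg2+/+, 46.6, 52.7 and 52.5 CPM in Plcg1−/−Plcg2+/+, 62.4, 45.4 and 64.6 CPM in Plcg1+/+Plcg2−/−, and 41.2, 36.7 and 61.1 CPM in Plcg1−/−Plcg2−/− CLPs. The B cell progenitor levels of Insig1 were 41.4, 54.3 and 84.6 CPM in Plcg1+/+Plcg2+/+, 36.1, 35.6 and 69.5 CPM in Plcg1−/−Plcg2+/+, 49.5, 58.9 and 72.8 CPM in Plcg1+/+Plcg2−/−, and 35.7, 38.2 and 59.3 CPM in Plcg1−/−Plcg2−/−. Its log2 fold changes between Plcg1−/−Plcg2−/− and Plcg1+/+Plcg2+/+ were −0.40 and −0.43 (adjusted p = 0.70 and 0.59), with overlap in both populations, and the latter was −0.07 without Plcg1+/+Plcg2+/+ replicate 3. Insig2 had 17.8, 20.3 and 15.7 CPM in Plcg1+/+Plcg2+/+, 21.9, 16.8 and 15.9 CPM in Plcg1−/−Plcg2+/+, 21.8, 21.4 and 21.1 CPM in Plcg1+/+Plcg2−/−, and 19.6, 16.5 and 18.1 CPM in Plcg1−/−Plcg2−/− CLPs. For Insig2 the B cell progenitors had 19.1, 18.6 and 16.5 CPM in Plcg1+/+Plcg2+/+, 23.8, 20.7 and 16.1 CPM in Plcg1−/−Plcg2+/+, 23.7, 19.2 and 19.1 CPM in Plcg1+/+Plcg2−/−, and 26.8, 24.5 and 18.5 CPM in Plcg1−/−Plcg2−/−. The log2 fold changes of Insig2 were 0.02 and 0.36 (adjusted p = 0.98 and 0.48).

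The single-deficient genotypes were compared with Plcg1+/+Plcg2+/+ to ask what the loss of 1 PLCγ does. In CLPs edgeR and DESeq2 each called 0 of 31 in Plcg1−/−Plcg2+/+, beside edgeR's 0.00658% of all genes, and 0 of 31 in Plcg1+/+Plcg2−/−, beside 0%. At an unadjusted p of at most 0.05 each tool had 1 of 31 in Plcg1−/−Plcg2+/+ CLPs, beside 2.85% of all genes by edgeR, and 1 in Plcg1+/+Plcg2−/− CLPs, beside 3.92%. By edgeR that gene was Pmvk in both genotypes, with log2 fold changes of −0.52 (SE 0.19, adjusted p = 1.00) and −0.43 (SE 0.19, adjusted p = 0.94). Its CLP levels were 18.2, 25.4 and 23.1 CPM in Plcg1+/+Plcg2+/+, 16.8, 16.1 and 13.6 CPM in Plcg1−/−Plcg2+/+, 19, 14.2 and 16.3 CPM in Plcg1+/+Plcg2−/−, and 15.4, 19.1 and 18.6 CPM in Plcg1−/−Plcg2−/−. These comparisons share the Plcg1+/+Plcg2+/+ libraries, and only in Plcg1−/−Plcg2+/+ did all 3 libraries lie below them. Without the 6 myeloid-high libraries Pmvk was again the 1 gene at that p in both, beside 2.78% and 2.26% of all genes, with 0 called, beside 0% in each. Of the B cell progenitor comparisons, both tools called 0 of 31 in Plcg1−/−Plcg2+/+, beside 0.06% of all genes by edgeR, and 0 in Plcg1+/+Plcg2−/−, beside 0.0467%. Unadjusted, edgeR had 0 of 31 at that p in Plcg1−/−Plcg2+/+, beside 9.93%, and 0 in Plcg1+/+Plcg2−/−, beside 2.84%, and DESeq2 had 1 and 0. The lowest edgeR p was that of Fdps in Plcg1−/−Plcg2+/+ (log2 fold change 0.55, SE 0.27, adjusted p = 0.47) and of Msmo1 in Plcg1+/+Plcg2−/− (0.39, SE 0.22, adjusted p = 0.92). Without the 6 myeloid-high libraries 2 of 31 were at that unadjusted p in Plcg1−/−Plcg2+/+ B cell progenitors (Mvk and Scd1, both lower), beside 18.7% of all genes, and the median of the 31 was −0.14, against 0.03 for all genes. In Plcg1+/+Plcg2−/− there was then 1 (Elovl6), beside 5.19%. None of the 31 was called in either of these fits, beside 0.0342% and 0.0228%.

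The double-deficient genotype was also set against each single-deficient one. In CLPs edgeR and DESeq2 called 0 of 31 against Plcg1−/−Plcg2+/+, beside edgeR's 0.0263% of all genes, and 0 against Plcg1+/+Plcg2−/−, beside 0.0526%. At an unadjusted p of at most 0.05 each tool had 1 of 31 against Plcg1−/−Plcg2+/+, beside 4.29%, and 0 against Plcg1+/+Plcg2−/−, beside 7.54%. By edgeR the 1 gene was Scd1, higher by 1.2 on the log2 scale (SE 0.55, adjusted p = 1.00). Both tools called 0 of 31 in B cell progenitors against Plcg1−/−Plcg2+/+, beside 0.213%, and 0 against Plcg1+/+Plcg2−/−, beside 0.153%. At the unadjusted threshold each tool had 2 of 31 against Plcg1−/−Plcg2+/+, beside 16.6%, and 0 against Plcg1+/+Plcg2−/−, beside 11%. By edgeR, Dhcr7 was higher in Plcg1−/−Plcg2−/− than in Plcg1−/−Plcg2+/+ by 0.52 (SE 0.19, adjusted p = 0.20) and Acaca lower, at −0.61 (SE 0.24, adjusted p = 0.22). Acaca, whose product malonyl-CoA feeds fatty acid synthesis, had 36.9, 45.8 and 29.5 CPM in Plcg1−/−Plcg2+/+ and 21.5, 30.9 and 20.4 CPM in Plcg1−/−Plcg2−/− B cell progenitors, which overlapped. The 31 genes had a median of 0.20 against Plcg1−/−Plcg2+/+, with 24 above 0 and 7 below. As single libraries were left out, this median was 0.12 (without Plcg1−/−Plcg2−/− replicate 2) to 0.32 (without Plcg1−/−Plcg2+/+ replicate 1). Against Plcg1+/+Plcg2−/− the median was 0.04, and it was −0.10 (without Plcg1−/−Plcg2−/− replicate 2) to 0.13 in such fits. No median or split of all genes is set beside these values of the main fit, so they do not show a shift particular to the 31. Without the 6 myeloid-high libraries, each knockout genotype kept replicates 2 and 3 alone. In that fit 12 of 31 reached an unadjusted p of 0.05 against Plcg1−/−Plcg2+/+, all higher, beside 25.4% of all genes in either direction. They were Hmgcs1, Fdps, Sqle, Cyp51, Msmo1, Hsd17b7, Dhcr7, Srebf1, Srebf2, Scap, Scd1 and Scd2. Shares of all genes beside the counts of this alternative cover both directions, and none is given for higher genes alone. None of the 31 was called, beside 0.376%. The median was then 0.34, against −0.03 for all genes. Against Plcg1+/+Plcg2−/− there were then 5 of 31 (Hmgcs1, Fdps, Dhcr7, Scap and Stard4, all higher), beside 17.5%, with a median of 0.15 against −0.03 and with 0 called, beside 0.222%. In CLPs these counts were 3 against Plcg1−/−Plcg2+/+ (Sqle, Hsd17b7 and Scd1), beside 3.96%, and 5 against Plcg1+/+Plcg2−/− (with Scap and Stard4 as well), beside 8.92%, and all were higher with 0 called, beside 0.00661% in each.

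A departure of Plcg1−/−Plcg2−/− from the sum of the 2 single-deficient effects was called by edgeR for 0 of 31 genes in CLPs, beside 0.0197% of all genes, and for 0 in B cell progenitors, beside 0.0267%, and by DESeq2 for 0 in both. Both tools had 1 of 31 at an unadjusted p of at most 0.05 in CLPs (Pmvk at 0.62 by edgeR), beside 4.77% of all genes, and 0 in B cell progenitors, beside 15.3%. The median departure in B cell progenitors was 0.07. As single libraries were left out it was 0.01 (without Plcg1−/−Plcg2−/− replicate 2) to 0.29 (without Plcg1+/+Plcg2−/− replicate 1). Without the 6 myeloid-high libraries it was 0.41, against 0.07 for all genes, with 5 of 31 at that unadjusted p, beside 27.3% of all genes, and 0 called, beside 0%. For CLPs 3 of 31 were then at that p (Pmvk, Sqle and Scd1), beside 4.79%, with 0 called, beside 0%. The effect of double deficiency was compared between the populations in 1 fit of all 24 libraries. edgeR and DESeq2 called 0 of 31 for that difference, and edgeR 0% of 17212 genes. At an unadjusted p of at most 0.05 each had 1 of 31, beside 1.37% of all genes. By edgeR the gene was Scd1, whose effect was lower in B cell progenitors than in CLPs by 1.42 on the log2 scale (SE 0.64, adjusted p = 1.00). The B cell progenitor libraries had Scd1 levels of 93.6, 70.0 and 88.7 CPM in Plcg1+/+Plcg2+/+ and 55.5, 56.6 and 88.4 CPM in Plcg1−/−Plcg2−/−.

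Between the populations, 3 genes of the 31 were lower in B cell progenitors than in CLPs when the 4 genotypes were averaged, a contrast added after seeing the data. They were Fasn, Mvd and Acss2. edgeR called these 3 of 31, a share no larger than the 14.4% of the 17212 genes called, and DESeq2 also 3. Without the 6 myeloid-high libraries there were 4 of 31, beside 15.3% of all genes, and the one added, Hsd17b7, was higher in B cell progenitors. Left without replicate 2 of Plcg1−/−Plcg2+/+, the count was 1, be it the CLP library (Mvd) or the B cell progenitor library (Acss2). The median log2 fold change of the 31 was −0.06, against 0.08 for all genes. Unadjusted p of at most 0.05 was reached by 13 of 31 in edgeR, beside 41.7% of all genes. At an adjusted p of at most 0.05 with no fold threshold there were 11 of 31, beside 30.1%. Reads on no gene were also more frequent in all B cell progenitor libraries, and their part in these differences was not tested.

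Fasn, the multi-domain synthase that builds palmitate, ranged over the 12 CLP libraries from 173 to 330.1 CPM with a median of 232, and over the 12 B cell progenitor libraries from 106 to 203 CPM with a median of 164, on a scale common to both. It was lower in the B cell progenitors of 10 of 12 mice, with a log2 fold change of −0.52 (SE 0.13, adjusted p = 0.0050). By genotype, Fasn had 320.4, 207 and 174 CPM in Plcg1+/+Plcg2+/+, 173, 321 and 239 CPM in Plcg1−/−Plcg2+/+, 227, 250.1 and 172 CPM in Plcg1+/+Plcg2−/−, and 257, 235 and 197 CPM in Plcg1−/−Plcg2−/− CLPs, on the scale of that population. In B cell progenitors these were 164, 163 and 186 CPM, 190.4, 124 and 206 CPM, 177, 141 and 158 CPM, and 168, 185 and 106 CPM in the same order. No genotype stood apart in either population.

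Mvd ranged from 11.4 to 19.4 CPM (median 15.5) in CLPs and from 6.20 to 15.6 CPM (median 11.5) in B cell progenitors on the common scale. It was lower in B cell progenitors in 11 of 12 mice, by −0.52 on the log2 scale (SE 0.14, adjusted p = 0.0081). In CLPs its levels were 13.8, 12.8 and 15.4 CPM in Plcg1+/+Plcg2+/+, 16.7, 14.8 and 19.6 CPM in Plcg1−/−Plcg2+/+, 17.5, 11.4 and 17.1 CPM in Plcg1+/+Plcg2−/−, and 17.9, 13.9 and 15.5 CPM in Plcg1−/−Plcg2−/−, all overlapping. Acss2 ranged from 13.6 to 83.5 CPM (median 25.3) in CLPs and from 12.2 to 29.2 CPM (median 18.6) in B cell progenitors. The difference was −0.97 (SE 0.31, adjusted p = 0.022), but only 7 of 12 mice showed its direction. With the mouse as a block it was −0.72 (adjusted p = 0.10) and no longer called, leaving 2 of 31. Its CLP levels were 53.9, 13.5 and 16.2 CPM in Plcg1+/+Plcg2+/+, 17.5, 81.1 and 16.9 CPM in Plcg1−/−Plcg2+/+, 26.4, 40.5 and 23.9 CPM in Plcg1+/+Plcg2−/−, and 27.9, 78.8 and 16.6 CPM in Plcg1−/−Plcg2−/−. The high libraries, with 53.9, 81.1 and 78.8 CPM, came 1 from each of 3 genotypes, and without the highest the difference was −0.72. In B cell progenitors Acss2 had 15.7, 12.3 and 20.5 CPM, 20.5, 18.5 and 20.1 CPM, 19.3, 13.8 and 14.3 CPM, and 29.4, 12.5 and 19.7 CPM in the same order. The CLP libraries with 53.9, 81.1, 78.8 and 40.5 CPM of Acss2 had 4123, 3472, 3072 and 3310 summed CPM of lymphoid progenitor markers. The other CLP libraries had at most 2414. Over the 12 CLP libraries the Pearson correlation of log2 levels with that list was 0.70 for Acss2 and 0.64 for Fasn. Over the 12 B cell progenitor libraries it was −0.58 and −0.30, and the part of these markers in the differences was not tested.

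**Figure D5:**
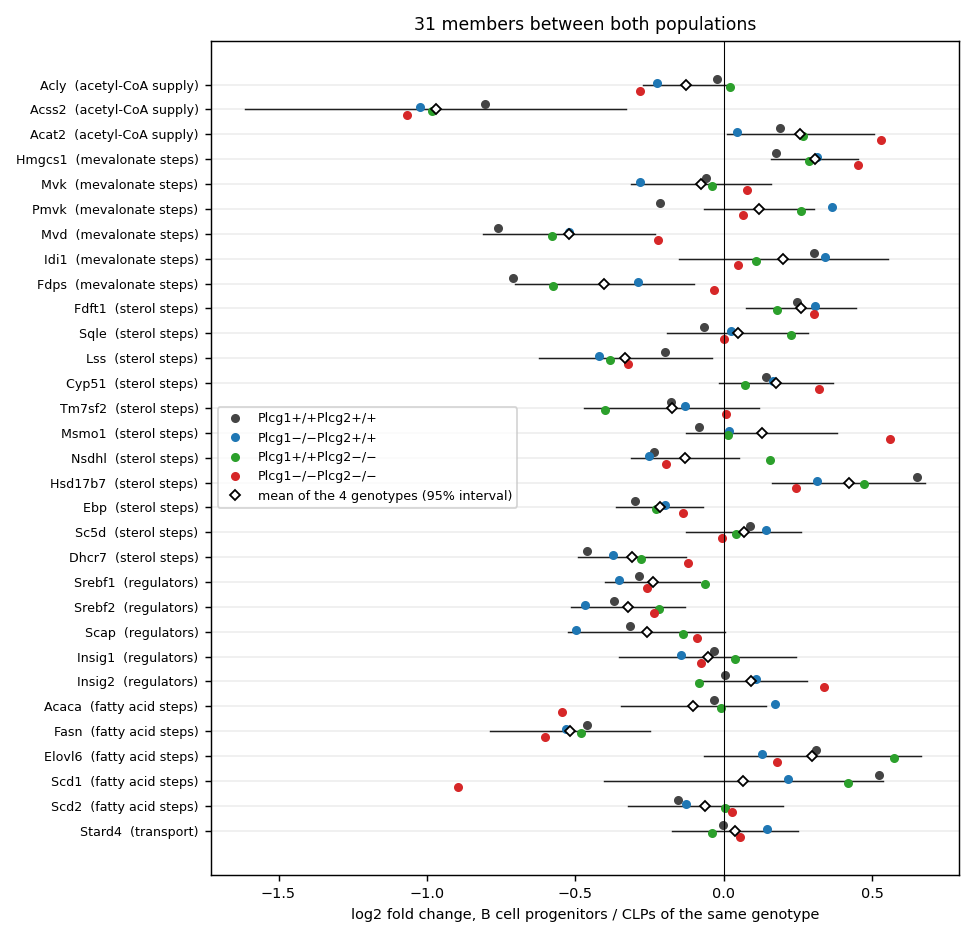
Log2 fold change of each of the 31 genes between B cell progenitors and CLPs (horizontal axis), with coloured points for each genotype, and a diamond with its 95% interval for the mean of the 4 genotypes. Acss2, Fasn and Mvd lie farthest to the left, at means of −0.97, −0.52 and −0.52, and Hsd17b7 farthest to the right, at 0.42.

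The other 8 genes that passed the adjusted p without reaching a log2 fold change of 0.5 went both ways. Hmgcs1, HMG-CoA synthase of the cytosol, was higher in the B cell progenitors of 12 of 12 mice, with 43.8 to 63.6 CPM (median 55.2) in CLPs and 56.0 to 83.7 CPM (median 64.6) in B cell progenitors. Its log2 fold change was 0.31 (SE 0.07, adjusted p = 0.0027). Within B cell progenitors it had 65.6, 64.0 and 64.2 CPM in Plcg1+/+Plcg2+/+ and 59.8, 82.9 and 77.2 CPM in Plcg1−/−Plcg2−/−, which overlapped. Hsd17b7 was higher in 9 of 12 mice (0.42, SE 0.12, adjusted p = 0.015), and without the 6 myeloid-high libraries it was called, at 0.53 (adjusted p = 0.0097). Also higher was Fdft1, the first enzyme committed to sterols, in 10 of 12 (0.26, SE 0.09, adjusted p = 0.032). Lower in B cell progenitors were Ebp in 12 of 12 mice (−0.21, adjusted p = 0.026), Srebf1 and Srebf2 in 11 of 12 each (−0.24 and −0.32, adjusted p = 0.022 and 0.012), and Dhcr7 and Fdps in 10 of 12 each (−0.31 and −0.40, adjusted p = 0.012 and 0.041). Along the mevalonate and sterol route the directions were mixed, with Hmgcs1, Fdft1 and Hsd17b7 higher and Mvd, Fdps, Ebp and Dhcr7 lower in B cell progenitors. Over the separate genotypes, 17 of 31 genes (54.8%) had the same sign in all 4, 7 higher and 10 lower, against 51.6% of all genes.

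Within single genotypes edgeR and DESeq2 called 0 of 31 between the populations. Beside that, edgeR called 3.5% of all genes in Plcg1+/+Plcg2+/+, 3.78% in Plcg1−/−Plcg2+/+, 3.21% in Plcg1+/+Plcg2−/− and 3.24% in Plcg1−/−Plcg2−/−. At an unadjusted p of at most 0.05 edgeR had 5 of 31 in Plcg1+/+Plcg2+/+, beside 16.1% of all genes, 4 in Plcg1−/−Plcg2+/+, beside 26.5%, 0 in Plcg1+/+Plcg2−/−, beside 16.2%, and 5 in Plcg1−/−Plcg2−/−, beside 14.3%. DESeq2 had 7, 6, 2 and 6 in the same order, while the shares of all genes are edgeR's. In Plcg1+/+Plcg2+/+ the 5 were Mvd (−0.76), Dhcr7 (−0.46), Fdps (−0.71), Ebp (−0.30) and Hsd17b7 (0.65). With the mouse as a block, Fdps was called in Plcg1+/+Plcg2+/+ (−0.67, adjusted p = 0.040). In Plcg1−/−Plcg2−/− the 5 were Hmgcs1 (0.45, adjusted p = 0.089), Msmo1 (0.56), Acat2 (0.53), Fasn (−0.60) and Acaca (−0.55). The median of all genes was itself 0.13 above 0 in Plcg1−/−Plcg2+/+ and between −0.03 and 0.08 in the other genotypes.

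Other genes of both routes, from lists of 15 sterol genes (uptake, storage, oxysterol sensing and further enzymes) and 17 fatty acid genes, were read in the same fits. In each population 14 sterol and 17 fatty acid genes were tested, and edgeR called 0 in any knockout against Plcg1+/+Plcg2+/+. In Plcg1−/−Plcg2−/− B cell progenitors the 3 with the lowest p were Mylip, a ubiquitin ligase that targets lipoprotein receptors (−0.76, SE 0.17, adjusted p = 0.066), Npc1, which exports cholesterol from lysosomes (0.50, SE 0.22, adjusted p = 0.37), and Fads2, a desaturase of polyunsaturated fatty acids (0.65, SE 0.28, adjusted p = 0.38). In CLPs the values were −0.48 for Mylip, −0.02 for Npc1 and 0.12 for Fads2.

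Positions bear on these values in 2 ways. Mvd lies on chromosome 8 from 122433596 to 122443422, 4.80 Mb from Plcg2, and Acss2 on chromosome 2 from 155518043 to 155562743, 5.17 Mb from Plcg1 (GRCm38.p6), and the mice were of mixed background, so linkage to the targeted alleles cannot be told apart from genotype at these genes. Ebp and Nsdhl are on the X chromosome, and the Plcg1 genotypes differed in Xist. Ebp had 31.8, 40.7 and 39.5 CPM in Plcg1+/+Plcg2+/+, 36.3, 40.3 and 34.6 CPM in Plcg1−/−Plcg2+/+, 31, 39.5 and 46.3 CPM in Plcg1+/+Plcg2−/−, and 46.9, 45.0 and 41.2 CPM in Plcg1−/−Plcg2−/− B cell progenitors. The Plcg1−/−Plcg2+/+ libraries overlapped the Plcg1+/+Plcg2+/+ ones. Nsdhl had 15.8 to 18.4 CPM in Plcg1+/+Plcg2+/+ and 15.2 to 17.1 CPM in Plcg1−/−Plcg2−/− B cell progenitors. The part of sex-linked transcripts in these values was not tested.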

How the data were processed

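CLPs and B cell progenitors of 4 genotypes gave 24 libraries. Per the labels, the authors aligned poly(A) RNA reads with STAR 2.5.0a to mm10. They deposited raw counts of reads per gene symbol, without normalization, and the counting program is not given in the sources used here. Lines for reads on no gene (17.9% to 87.3% of reads) or ambiguous (at most 1.44%) stayed out of library sizes. Counting without a stated strand or multi-read rule can split reads between overlapping genes and near copies such as Scd1 and Scd2.

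Genotype, population and mouse came from the labels. The counts went into edgeR 4.0.16 (R 4.3.3; TMM, filterByExpr, quasi-likelihood test, Benjamini-Hochberg adjustment over all genes tested), in 1 fit per population (15209 and 15001 genes) or, between populations, 1 fit of 24 libraries (17212 genes), with no covariate. Calls needed an adjusted p ≤ 0.05 and a log2 fold change ≥ 0.5 either way. Shares of all genes beside a count come from edgeR, also where a DESeq2 count is named. No such share is given for DESeq2, for the mouse as a block or with single libraries left out. CPM are scaled by TMM within a population unless a common scale is named, and correlations used log2 CPM with a prior count of 2. Alternatives were DESeq2 1.42.0, RLE size factors, an unfiltered table, the compared groups alone, adjusted p alone, a replicate block, single libraries left out and, chosen after seeing the data, fits without the 6 myeloid-high libraries. The scripts were tested on simulated data. The chi-square between replicates of a group was 9.62 to 147 per degree of freedom, so none was a copy of another.

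The genes and lists were chosen with earlier results of these data known. Values in every library are given for genes called in any contrast, the 5 regulators and the 4 with the lowest p in Plcg1−/−Plcg2−/− against Plcg1+/+Plcg2+/+ in each population, and, chosen after their values were seen, for Pmvk and Ebp. Libraries of the 2 populations are paired by mouse, since the sample labels name the mouse. The mean correlation of their deviations from the group means was 0.11 within a mouse (−0.35 to 0.53) and −0.01 between mice. Plots used matplotlib 3.10.9 (Python 3.11.15), and promoter sequences and positions come from RefSeq on GRCm38.p6. Some genes of the pathway are not reported here.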

Additional observations from a re-analysis of the deposited data

How the results depend on the processing

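Within each population, 0 of the 31 genes were called in every knockout comparison under DESeq2, RLE size factors, the unfiltered table, the compared groups alone, adjusted p alone, the replicate block, each library left out, and without the 6 myeloid-high libraries. Groups could not be taken alone for the departure from additivity, which uses all 4. With the mouse as a replicate block, 1 gene was called between the populations in Plcg1+/+Plcg2+/+ mice (Fdps, −0.67, adjusted p = 0.040), against 0 without it, and the mean over genotypes had 2 calls, with Acss2 at −0.72 (adjusted p = 0.10). For that mean, the fit without the 6 libraries gave 4, with Hsd17b7 (0.53, adjusted p = 0.0097), adjusted p alone gave 11, and leaving out single libraries gave 1 to 4. The count was 1 without Plcg1−/−Plcg2+/+ replicate 2 of either population, Mvd without its CLP library and Acss2 without its B cell progenitor library. In Plcg1−/−Plcg2+/+ mice the count with single libraries left out was 0 to 1 (Srebf1, −0.66, adjusted p = 0.048, without B cell progenitor replicate 1). Such fits keep more low genes, since the smallest group then has 2 libraries. Small values changed sign. Between Plcg1−/−Plcg2−/− and Plcg1+/+Plcg2+/+, Insig2 in CLPs was −0.0398 without the 6 libraries and ranged from −0.0678 to 0.14 with single libraries left out. Srebf1 ranged from −0.0013 to 0.20 in CLPs and from −0.0124 to 0.18 in B cell progenitors. Msmo1 between the populations in Plcg1+/+Plcg2+/+ mice ranged from −0.23 to 0.15. The cause of these changes was not tested. Between genotypes the replicate numbers are shared. For knockout and Plcg1+/+Plcg2+/+ libraries with the same number, the mean correlation of deviations from the group means was −0.21 to 0.07. With these numbers as a block no call between genotypes changed. The shallowest B cell progenitor library, with 1479582 reads on genes, limits the low genes most.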

Other observations

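Outside the 31 genes, those whose log2 CPM followed the median profile of the set most closely over the 12 libraries of a population were read as a description. In CLPs the highest Pearson correlations were those of Mut (0.89), Tmem18 (0.87) and Surf1 (0.87). In B cell progenitors they were those of Zfp263 (0.88), Spred2 (0.83) and Abtb1 (0.83). The libraries share depth and cell make-up.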
